A study of Homo sapiens with 27 samples.

Results

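The snoRNA host genes described here were the rows of the deposited count table whose Entrez identifier maps to a human symbol SNHG followed by a number, or to GAS5, ZFAS1, DANCR, MEG3 or EPB41L4A-AS1, the last of which was not analysed here. The rule found 26 rows among 24566, and it used no measured value. RNA was sequenced from A431, an established human epidermoid carcinoma line, and from MDA-MB-231, an established human breast adenocarcinoma line, after 48 h of treatment, with 3 biological replicates in each of 9 groups. The A431 groups were untreated cells, a vehicle control, CKI (Compound Kushen Injection, a plant extract used in traditional Chinese medicine), doxorubicin, and CKI together with doxorubicin. The MDA-MB-231 groups were untreated cells, CKI, 5-FU, and CKI together with 5-FU. CKI was given at 1 mg/ml and 5-FU at 10 µg/ml. Doxorubicin, a DNA intercalator and topoisomerase II poison, was used only in A431, and 5-FU, a fluoropyrimidine that is also built into RNA, only in MDA-MB-231, so that drug and cell line cannot be told apart in any contrast of these 2 drugs. Each line is a single cultured line, and no vehicle group of MDA-MB-231 cells was analysed here.

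Small nucleolar RNAs (snoRNAs) guide the chemical modification of ribosomal RNA. Box C/D snoRNAs direct 2′-O-methylation together with the methyltransferase fibrillarin, box H/ACA snoRNAs direct pseudouridylation together with dyskerin, and scaRNAs guide the modification of spliceosomal RNAs in Cajal bodies. In human cells most of them are cut out of the introns of a host gene, and the spliced exons of the host then have a fate of their own. For many noncoding hosts that fate is rapid decay in the cytoplasm, since translating ribosomes meet early stop codons and nonsense-mediated decay follows. GAS5, the growth arrest-specific transcript, is the textbook case, and its level is known to rise when translation is blocked. Several hosts begin with a 5′ terminal oligopyrimidine tract, the start that ribosomal protein genes carry.

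According to RefSeq gene models (GRCh38.p14, used only for which genes lie inside which), 24 of the 26 host genes held 59 snoRNAs, of which 35 were of the box C/D class, 21 of the box H/ACA class and 3 were scaRNAs. GAS5 held 11 and SNHG1 held 8, whereas MEG3 and SNHG28 held none. The GRCh37 annotation differed for some hosts, for example with SNORD64 inside SNHG28 and 4 snoRNAs inside SNHG33, where RefSeq had 2. The classes used here follow RefSeq. The hosts with at least 1 box C/D snoRNA were SNHG1, SNHG5, SNHG12, SNHG16, SNHG18, SNHG19, SNHG25, SNHG29, SNHG32, GAS5 and ZFAS1. The hosts of box H/ACA snoRNAs alone were SNHG3, SNHG7, SNHG8, SNHG9, SNHG11, SNHG15, SNHG17, SNHG31, SNHG33 and DANCR, and SNHG20, SNHG21 and SNHG22 held a scaRNA. The snoRNAs below are examples from SNHG32, SNHG3 and SNHG17, which were DE with a drug, and from ZFAS1, which was DE with neither. Each snoRNA shown was read from GRCh37 and lies in an intron of its host's canonical transcript. None is shown for SNHG1 or SNHG7, inside which the GRCh37 annotation places no snoRNA. Capitals mark the exact letters TGATGA (box C) and the last CTGA (box D), or the last ACA of a box H/ACA snoRNA. Those of SNHG32 lie on the plus strand at chr6:31803040-31803103 and chr6:31804853-31804919, those of ZFAS1 on the plus strand at chr20:47897220-47897309, chr20:47896856-47896946 and chr20:47895477-47895565, that of SNHG3 on the plus strand at chr1:28835071-28835274, and those of SNHG17 on the minus strand at chr20:37055952-37056085 and chr20:37058313-37058446.
SNORD48 in SNHG32: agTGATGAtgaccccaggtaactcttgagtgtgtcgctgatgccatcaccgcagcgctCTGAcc
SNORD52 in SNHG32: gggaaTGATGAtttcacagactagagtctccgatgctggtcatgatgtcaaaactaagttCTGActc
SNORD12 in ZFAS1: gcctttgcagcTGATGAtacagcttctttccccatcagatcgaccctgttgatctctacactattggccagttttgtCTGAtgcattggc
SNORD12B in ZFAS1: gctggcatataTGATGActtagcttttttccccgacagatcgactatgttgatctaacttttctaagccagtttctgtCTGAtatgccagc
SNORD12C in ZFAS1: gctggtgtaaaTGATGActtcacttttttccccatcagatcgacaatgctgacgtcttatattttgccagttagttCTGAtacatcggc
SNORA73B in SNHG3: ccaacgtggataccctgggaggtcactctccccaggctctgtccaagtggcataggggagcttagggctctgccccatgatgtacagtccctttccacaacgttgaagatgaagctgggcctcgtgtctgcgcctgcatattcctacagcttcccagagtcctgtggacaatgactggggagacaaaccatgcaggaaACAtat
SNORA71A in SNHG17: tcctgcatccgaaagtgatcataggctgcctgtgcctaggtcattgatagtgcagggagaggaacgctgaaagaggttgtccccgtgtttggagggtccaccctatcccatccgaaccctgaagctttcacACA
SNORA71C in SNHG17: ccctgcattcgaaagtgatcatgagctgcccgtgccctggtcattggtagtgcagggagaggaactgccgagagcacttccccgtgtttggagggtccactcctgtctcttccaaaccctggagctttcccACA

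The starts of the host genes were read from RefSeq promoter sequences (GRCh38.p14), which gave 26 annotated starts for 23 of the host genes. A start was counted as pyrimidine-rich where its first base was C and opened an unbroken run of at least 5 C or T on the transcribed strand. By this rule 6 of the 26 starts qualified (23.1%), against 4.07% of all 35116 annotated starts, 11.1% of the starts of protein-coding snoRNA hosts and 56.5% of those of cytosolic ribosomal protein genes. Those 6 were of SNHG5, SNHG12, SNHG18, SNHG19, SNHG32 and ZFAS1. They are shown with 15 bases before the start and 20 from it on, with the run in capitals (that of SNHG18 went on past the window), beside SNHG1 and SNHG7, whose runs were of 3 and 4 bases. The rule depends on the exact annotated base, and a tract that begins a few bases away is missed. The annotated start of GAS5 was an A, so it did not qualify.
SNHG5 start: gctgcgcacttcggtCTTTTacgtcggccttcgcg
SNHG12 start: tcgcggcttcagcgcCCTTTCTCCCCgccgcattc
SNHG18 start: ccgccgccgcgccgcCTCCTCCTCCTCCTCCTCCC
SNHG19 start: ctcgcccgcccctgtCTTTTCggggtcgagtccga
SNHG32 start: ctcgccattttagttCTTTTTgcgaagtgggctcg
ZFAS1 start: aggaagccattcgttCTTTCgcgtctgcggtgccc
SNHG1 start: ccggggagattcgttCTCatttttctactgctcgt
SNHG7 start: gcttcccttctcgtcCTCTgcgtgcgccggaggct

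Library totals ranged from 17757206 to 21756536 counts in A431 and from 19871048 to 22809339 in MDA-MB-231, and 3 counts corresponded to between 0.136 and 0.189 CPM (read counts scaled to a common library total) over all libraries. Between the untreated lines all 7 keratinocyte and A431 markers were higher in A431 and 4 of 5 MDA-MB-231 markers were higher in MDA-MB-231, while ESR1 and PGR, the luminal breast receptors, had 0 to 2 counts in the untreated MDA-MB-231 libraries. KRT5, a basal keratin, had at most 2 counts in untreated MDA-MB-231 libraries and between 13 and 86 counts in the treated ones, with the highest count in 5-FU replicate 1. Of the 4 A431 markers tested in MDA-MB-231, KRT5 alone was higher by the criteria below after 5-FU and after CKI. The summed level of all 7 markers, most of which was EGFR, ranged from 231 to 262 CPM in untreated, 303 to 336 in CKI, 158 to 179 in 5-FU and 352 to 372 in combination-treated MDA-MB-231 libraries, with DSG3 at 0 counts in untreated cells. Their part in the results was not tested. The first replicate of untreated MDA-MB-231 stood apart from the other two in several host genes. For example, SNHG29 measured 370.7 CPM there against 274.9 and 260.5, and ZFAS1 measured 214.5 against 142.7 and 140.6. Values without this library are given beside some of the 5-FU and CKI results that use it, and none are given between the untreated lines.

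CPM values are normalised within a cell line, except in the comparison of the untreated lines. There they are normalised over the untreated libraries of both lines, so they differ from those given elsewhere. A gene was called differentially expressed (DE) at a Benjamini-Hochberg adjusted p under 0.05 with a log2 fold change above 1 or below -1 in edgeR's quasi-likelihood test. "Rose" and "fell" are used for any gene with an adjusted p under 0.05. In bulk RNA, fewer cells of a kind and less RNA per cell cannot be told apart. Libraries were not stranded, so reads of a host gene and of a gene overlapping its exons cannot be separated. Such overlaps exist for SNHG3 with RCC1, SNHG7 with DIPK1B, SNHG8 with PRSS12, SNHG12 with TRNAU1AP, SNHG21 with FSD2, SNHG22 with MYO5B, SNHG28 with SLAMF8 and VSIG8, SNHG33 with LINC00888 and DANCR with LINC01618, and also for SNHG32 with an unnamed gene.

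Between the untreated lines 6 members were DE, with the largest folds for the box C/D hosts SNHG5 and SNHG32. SNHG5 was 5.3-fold lower in A431 (67 ± 5.77 CPM) than in MDA-MB-231 (355.3 ± 15.6 CPM), and SNHG32, the host gene in the major histocompatibility region, was 4.99-fold lower (59.1 ± 1.58 against 295.2 ± 7.54 CPM; SD, n = 3 each). SNHG29 was 2.31-fold lower in A431 (122.1 ± 2.68 against 281.8 ± 53.1 CPM). In the other direction SNHG12 was 2.83-fold higher (70.5 ± 11.8 against 24.9 ± 5.23 CPM), SNHG19 was 2.37-fold higher and SNHG20 was 2.32-fold higher in A431. Of the 22 tested these were 3 in each direction, where 41.5% of all 14181 genes tested were DE. GAS5 (228.6 ± 30 against 175.6 ± 32.5 CPM), ZFAS1 (163 ± 3.67 against 154.7 ± 37.6 CPM) and SNHG9 (1.14 ± 0.2 against 1.08 ± 0.129 CPM) overlapped between the lines and did not pass the test. SNHG20 fell just short of the fold criterion without untreated MDA-MB-231 replicate 3, with a log2 difference of 0.99, and SNHG19 did so (0.87) with offsets for GC content and length.

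Doxorubicin raised some host genes in A431 and lowered others. Of 24 tested, 3 were DE upwards (SNHG32, SNHG3 and SNHG31) and 1 downwards (SNHG7), which is 12.5% and 4.17% of the members against 23% and 14.3% of all 15881 genes tested, and 37.3% in both directions together. Without the fold criterion 11 rose and 8 fell, where 40.7% and 39.9% of all genes did, 80.6% in all. The median log2 fold change was 0.3 over the members and 0.02 over all genes, and with offsets for GC content and length these were -0.01 and -0.06.

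SNHG32 had the clearest increase. It measured 65.6, 65.8 and 64 CPM in untreated A431 cells and 187.1, 177.1 and 185.1 CPM after doxorubicin. The 2 groups lay far apart, with a 2.81-fold increase (log2 1.49 ± 0.0641 SE, edgeR adjusted p = 1.5e-15). SNHG32 is the host of SNORD48 and SNORD52, shown above. SNHG3, a host of the long box H/ACA snoRNAs SNORA73A and SNORA73B, which act in pre-rRNA cleavage, measured 75.8, 75 and 54.5 CPM before and 150.9, 145.8 and 137.5 CPM after doxorubicin (2.11-fold, log2 1.08 ± 0.0959, adjusted p = 6.2e-10). Every treated library lay above every untreated one. Without untreated A431 replicate 3, with offsets for GC content and length, or against the vehicle control (log2 0.88), SNHG3 still rose and no longer met the fold criterion.

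SNHG31 was near the detection floor, with 3, 2 and 1 counts in untreated cells and 13, 11 and 13 counts after doxorubicin. Its fitted increase was 4.9-fold (log2 2.29 ± 0.509, adjusted p = 0.00029). No other A431 library held more than 7 counts, so SNHG31 passed the low-count filter only through the doxorubicin group, where it was high. Its test therefore adds no support to the upward calls. SNHG7, a host of SNORA17A and SNORA17B, went the other way, from 61.2, 62.9 and 60.6 CPM to 16.6, 18.1 and 16.7 CPM, a 3.59-fold decrease (log2 -1.84 ± 0.0726, adjusted p = 3e-16). It was DE under each alternative tried, with log2 values from -1.9 to -1.45. 

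SNHG1, with 8 box C/D snoRNAs, rose 1.9-fold after doxorubicin from 153.2, 153.4 and 117 CPM to 269.5, 276.9 and 259.7 CPM (log2 0.93 ± 0.0991, adjusted p = 1.4e-08), just short of the fold criterion. SNHG12 rose 1.82-fold, SNHG9 1.77-fold, SNHG18 1.48-fold, SNHG8 1.43-fold, SNHG33 1.3-fold, ZFAS1 1.3-fold and SNHG29 1.19-fold. GAS5, whose transcript is named for growth arrest, measured 255.1, 280.7 and 219 CPM before and 289, 278 and 260.2 CPM after doxorubicin. The groups overlapped, and the log2 difference of 0.13 ± 0.0818 did not pass (adjusted p = 0.14). DANCR, the host of SNORA26 and a transcript that opposes differentiation of epidermal progenitors, fell from 48.5, 49.5 and 56 CPM to 35.9, 37.3 and 35.8 CPM (1.41-fold, log2 -0.5 ± 0.0706, adjusted p = 1.1e-06). SNHG15 fell 1.67-fold, SNHG16 1.64-fold, SNHG11 1.62-fold, SNHG17 1.52-fold, SNHG5 1.2-fold and SNHG19 1.17-fold, with SNHG19 overlapping between the groups and, over 16 alternatives, losing the call in 10 and turning in 2. The remaining members tested, SNHG20, SNHG21, SNHG25 and SNHG28, had log2 values between -0.25 and 0.72 and did not pass.

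Several members changed with the choice of control. Against the vehicle control SNHG11 had a log2 value of -0.2 (adjusted p = 0.098) and SNHG8 of 0.15 (adjusted p = 0.065), so that neither passed. DANCR had a log2 value of -0.03 (adjusted p = 0.7), ZFAS1 turned to -0.2, SNHG29 to -0.01 and SNHG19 to 0.53. SNHG32 (1.42), SNHG31 (2.18) and SNHG7 (-1.64) were DE against the vehicle control as well, and SNHG9 then reached 1.75. Without TMM normalisation, by library size alone, the median of all genes moved from 0.02 to 0.36, and SNHG5 and SNHG19 turned to 0.08 and 0.12. In that setting 8 members were DE instead of 4 (7 of them upwards), where 38% of all genes tested were DE. 

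MEG3, an imprinted maternally expressed noncoding RNA that is silent in many tumour lines, was not tested because of its low counts. It had 0 counts in all 3 untreated and all 3 vehicle libraries of A431 and in all 12 MDA-MB-231 libraries, 10, 7 and 8 counts after doxorubicin, and 4, 4 and 7 counts after CKI with doxorubicin. Against 3 counts in each untreated library, its mean of 0.408 CPM after doxorubicin was at least 2.29-fold higher. SNHG22 was also untested, and its row was identical to that of the scaRNA gene SCARNA17, with which it shares an Ensembl identifier. It had at most 0.644 CPM in any library.

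**Figure D1:**
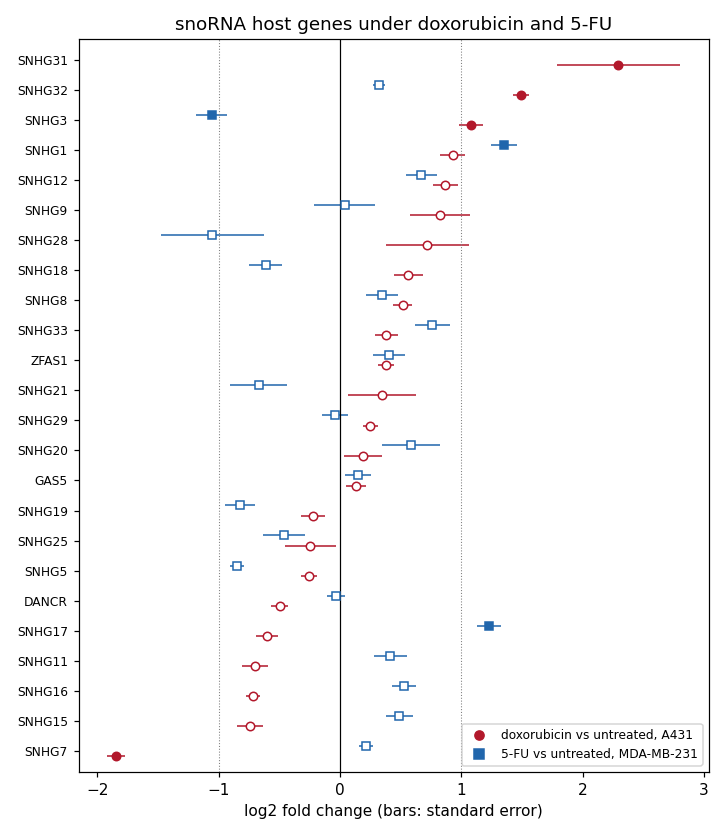
Log2 fold change of each tested snoRNA host gene (rows, ordered by the doxorubicin value) after doxorubicin in A431 (red circles) and after 5-FU in MDA-MB-231 (blue squares), with standard errors as bars and filled symbols for DE genes. SNHG3 lies at 1.08 under doxorubicin and -1.06 under 5-FU, and SNHG17 at -0.6 and 1.23, whereas SNHG1 lies at 0.93 and 1.35.

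5-FU also moved host genes past the criteria in both directions in MDA-MB-231. Of 23 members tested, SNHG1 and SNHG17 were DE upwards and SNHG3 downwards, which is 8.7% and 4.35% of the members against 6.01% and 7.31% of all 13999 genes tested, and 13.3% for both directions. Without the fold criterion 11 rose and 6 fell (28.6% and 28.5% of all genes, 57.1% in all), and the median log2 fold change was 0.22 over the members and 0 over all genes. SNHG31 was not tested in this line.

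SNHG1 had the largest increase. It measured 120.9, 94 and 90.9 CPM in untreated cells and 253.2, 268.3 and 260 CPM after 5-FU (2.56-fold, log2 1.35 ± 0.107, adjusted p = 7.2e-07). SNHG17, the host of the SNORA71A to SNORA71D cluster shown in part above, measured 24.7, 22.6 and 23.2 CPM before and 56.3, 60.8 and 47.9 CPM after 5-FU (2.34-fold, log2 1.23 ± 0.0954, adjusted p = 6.5e-07). For each of these genes the treated libraries all lay above the untreated ones, and each was DE under every alternative tried. SNHG3 went from 106.8, 79.6 and 77.6 CPM to 40, 48 and 38.7 CPM, a 2.08-fold decrease (log2 -1.06 ± 0.125, adjusted p = 1.9e-05). Without untreated replicate 1 its log2 value was -0.9 (adjusted p = 5.5e-11), so that it fell and was not DE, and the DE call was also lost without 5-FU replicate 3 and without TMM. Without untreated replicate 1 altogether 14 members rose and 6 fell, 2 were DE upwards and 0 downwards, and the median was 0.31. No share of all genes is given for this setting.

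The other members that rose after 5-FU were SNHG33 (1.69-fold), SNHG12 (1.59-fold), SNHG16 (1.44-fold), SNHG15 (1.4-fold), SNHG11 (1.33-fold), ZFAS1 (1.32-fold), SNHG8 (1.27-fold), SNHG32 (1.25-fold) and SNHG7 (1.16-fold). SNHG5 fell 1.8-fold, SNHG19 1.77-fold, SNHG21 1.59-fold, SNHG18 1.53-fold and SNHG25 1.37-fold. GAS5 measured 228.8, 178.1 and 157.8 CPM before and 206.1, 209.8 and 210.1 CPM after 5-FU, with overlapping groups and a log2 difference of 0.15 ± 0.108 (adjusted p = 0.26). Without untreated replicate 1 that difference was 0.31 (adjusted p = 1.6e-05). ZFAS1 measured 213.3, 220.8 and 224.5 CPM after 5-FU and overlapped with the first untreated replicate. DANCR stayed between 61.8 and 74.8 CPM in all 6 libraries of the contrast (log2 -0.03 ± 0.0722, adjusted p = 0.71), and SNHG29 and SNHG9 had log2 values of -0.04 and 0.04 that did not pass either. SNHG20 (0.58) and SNHG28 (-1.05) did not pass, and both had few counts. Without untreated replicate 1, SNHG29 (log2 0.13, adjusted p = 0.019) and SNHG20 (log2 0.665, adjusted p = 0.022) rose as well. 

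**Figure D2:**
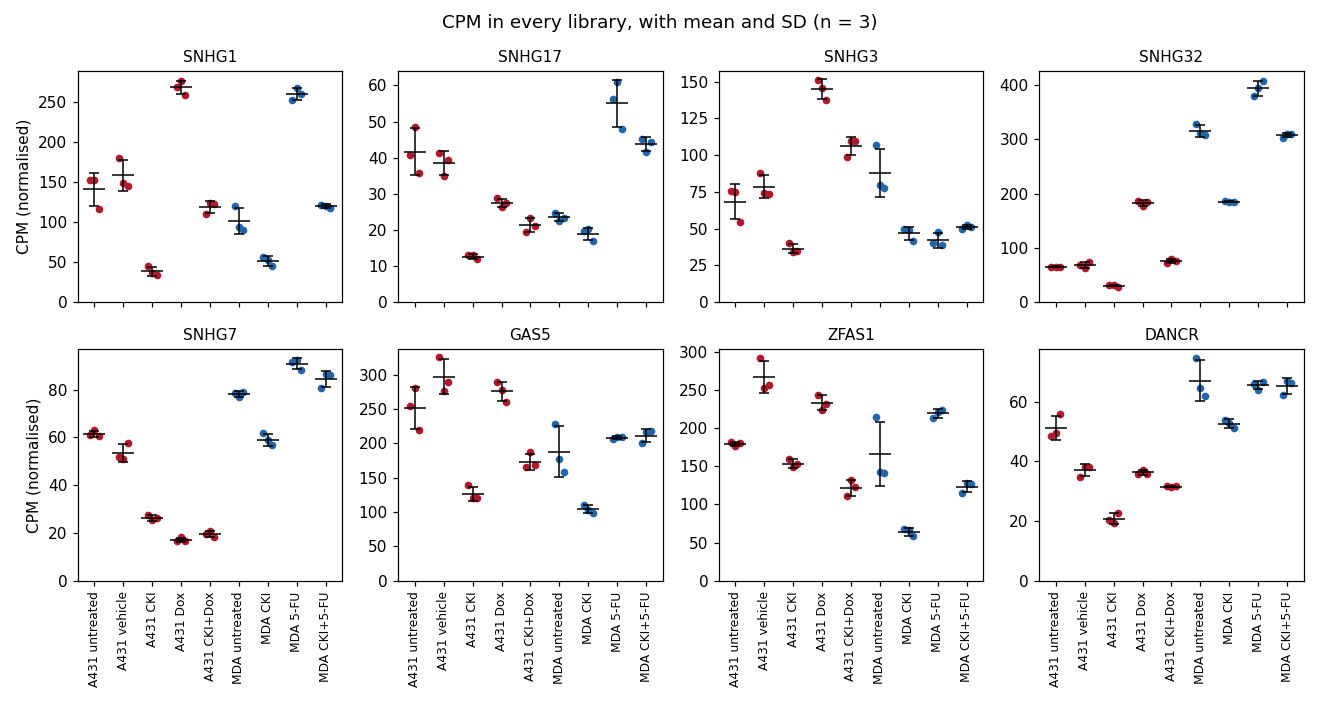
CPM of 8 snoRNA host genes in every library of the 9 groups (red, A431; blue, MDA-MB-231), with the mean as a black line and the SD as a bar (n = 3). SNHG1 is highest in the doxorubicin and 5-FU groups and lowest in the CKI groups of the same lines, and SNHG7 is lowest in the 2 doxorubicin groups.

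The responses to the 2 drugs were set against each other by testing the doxorubicin effect in A431 minus the 5-FU effect in MDA-MB-231. For 10 of 24 members this difference was DE, 5 in each direction, where 30.3% of all 15893 genes tested were. The difference was 2.22 ± 0.208 on the log2 scale for SNHG3 (edgeR adjusted p = 1.4e-06), which rose with doxorubicin and fell with 5-FU. For SNHG17 it was -1.75 ± 0.162 (adjusted p = 1.2e-06), with the opposite signs. SNHG18 rose with doxorubicin and fell with 5-FU (difference 1.25), and SNHG7, SNHG11, SNHG15 and SNHG16 fell with doxorubicin and rose with 5-FU (differences -1.98, -1.03, -1.15 and -1.16). SNHG32 rose with both drugs and more with doxorubicin (difference 1.25), and SNHG21 (1.09) and SNHG28 (1.85) completed the 10. SNHG11 lost the call in 8 of 21 alternatives and SNHG21 in 4. Against untreated cells SNHG1, SNHG8, SNHG12, SNHG33 and ZFAS1 rose with both drugs. Their differences, between -0.35 and 0.28, did not pass the test. SNHG1 and SNHG12 kept both rises under every alternative. Against the vehicle control, ZFAS1 fell with doxorubicin (log2 -0.2) and SNHG8 did not pass (0.15). SNHG33 dropped to 0.04 under doxorubicin and no longer passed once GC content and length were allowed for. With 5-FU, ZFAS1 was not called in 5 of 15 alternatives and SNHG8 in 6. Since each drug was given in 1 line, the differences between the 2 drug effects are differences between drug and line together.

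The classes of host were mixed within each drug. Of the 11 box C/D hosts 6 rose and 3 fell with doxorubicin (median log2 0.25), and 5 rose and 4 fell with 5-FU (median 0.15). Of the hosts of box H/ACA snoRNAs alone 5 of 10 rose and 5 fell with doxorubicin (median -0.06), and 6 of 9 rose and 1 fell with 5-FU (median 0.35). Of all genes tested 40.7% rose and 39.9% fell with doxorubicin, and 28.6% rose and 28.5% fell with 5-FU. The 6 hosts with a pyrimidine run at the start ranged from -0.26 to 1.49 with doxorubicin and from -0.85 to 0.67 with 5-FU.

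CKI lowered host genes in both lines. In A431, 11 of 24 members were DE downwards (45.8%) and 0 upwards, against 10.4% and 12% of all 15881 genes tested, and 22.4% for both directions. By adjusted p alone 18 fell and SNHG18 alone rose, where 33.7% of all genes fell and 33.3% rose, 67% in all. At an unadjusted p under 0.05 the counts were 19 and 1, and DESeq2 also called 0 upwards. The median log2 fold change was -0.95 over the members and 0 over all genes, and the members' median was between -1.01 and -0.76 under the alternatives for normalisation, filter, samples and control.

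The steepest decreases in A431 were those of SNHG25, the host of SNORD104, at 6.46-fold (5.78, 6.23 and 3.22 CPM before, 0.823, 0.943 and 0.582 after; log2 -2.69 ± 0.287, adjusted p = 1.7e-08), of SNHG19, the host of SNORD60, at 4.35-fold, and of SNHG15, the host of SNORA9, at 4.07-fold. SNHG1 went down to 45.1, 35.9 and 34.5 CPM (3.67-fold, log2 -1.87 ± 0.107, adjusted p = 3.2e-13), SNHG17 3.3-fold and SNHG20 3.31-fold. SNHG9 (3.1-fold), DANCR (2.47-fold), SNHG7 (2.34-fold), SNHG11 (2.19-fold) and SNHG32 (2.13-fold) completed the 11, and for each of them the CKI libraries lay below all untreated ones. DANCR measured 20.3, 19.3 and 22.8 CPM after CKI, below its doxorubicin values. GAS5 measured 138.8, 120.4 and 119.9 CPM (1.99-fold, log2 -0.99 ± 0.0836), just short of the fold criterion, and at -1.24 against the vehicle control it was past it. ZFAS1 fell least among those that passed, from 181.9, 176.6 and 180.2 CPM to 159.5, 148.6 and 152.4 CPM (1.17-fold). Against the vehicle control ZFAS1 was at log2 -0.8 (adjusted p = 2.8e-10), a larger decrease than that of SNHG11 (-0.64). SNHG16, SNHG21, SNHG28, SNHG31 and SNHG33 did not pass, with log2 values between -0.21 and 0.6. Against the vehicle control 12 members were DE, all downwards, and no share of all genes is given for that control. DANCR (-0.84), SNHG11 (-0.64) and SNHG9 (-0.71) were not among the 12.

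With CKI in MDA-MB-231, ZFAS1 and SNHG29 were DE downwards and no member was DE upwards (8.7% and 0%, against 2.21% and 3.76% of all genes tested, and 5.96% for both directions). By adjusted p alone 16 of 23 fell and 0 rose, where 18.8% of all genes fell and 17.4% rose, 36.2% in all. At an unadjusted p under 0.05 these counts were 18 and 0, and DESeq2 called 0 upwards. ZFAS1 measured 67.7, 66.2 and 58.2 CPM after CKI (2.59-fold, log2 -1.37 ± 0.139, adjusted p = 1.7e-05), and SNHG29, the host of SNORD49A, SNORD49B and SNORD65, measured 151.3, 137.4 and 139.1 CPM (2.12-fold, log2 -1.08 ± 0.11). Both lay below all untreated libraries. Without untreated replicate 1 ZFAS1 was at -1.15 and SNHG29 at -0.91, so 1 member was DE, where 6.52% of all genes tested were. By adjusted p alone 15 fell and 1 rose, with no share of all genes given for this setting. GAS5 then went from -0.86 to -0.69 and SNHG12 from -0.39 to -0.2, and both still fell. SNHG1 fell 1.98-fold, SNHG3 1.88-fold, SNHG25 1.85-fold, GAS5 1.81-fold (to 110.1, 103.6 and 98.3 CPM), SNHG32 1.7-fold and DANCR 1.27-fold. SNHG19, which fell 4.35-fold in A431, measured 10.9, 11.2 and 9.77 CPM after CKI against 10.3, 10 and 10.1 CPM in untreated MDA-MB-231. The difference between the lines in the response to CKI was not tested.

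**Figure D3:**
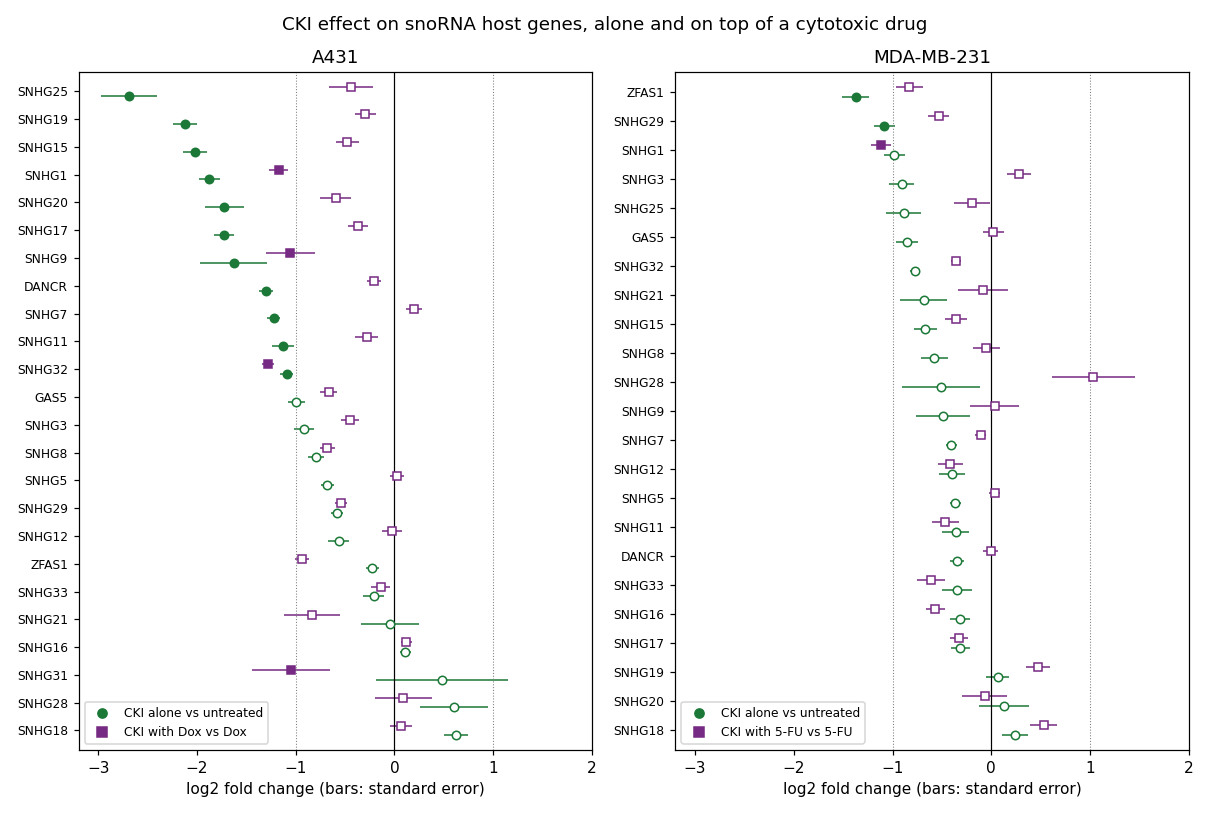
Log2 fold change of the host genes with CKI alone against untreated cells (green circles) and with CKI on top of doxorubicin or 5-FU against that drug alone (purple squares) in A431 (left) and MDA-MB-231 (right), with standard errors as bars and filled symbols for DE genes. In A431 11 members are filled for CKI alone and 4 for CKI on top of doxorubicin.

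On top of doxorubicin, CKI lowered 4 of 24 members past the criteria and raised 0 (16.7% against 8.03% of all genes downwards, with 6.89% upwards and 14.9% for both directions). By adjusted p alone 16 fell and SNHG7 rose, against 29.8% and 33.8% of all genes, 63.6% in all. The rise of SNHG7 was small (log2 0.2) and lost its call in 7 of 15 alternatives, DESeq2 among them. At an unadjusted p under 0.05 1 was higher, and DESeq2 called 0 upwards. SNHG32 fell from the doxorubicin level to 71.5, 79.3 and 75.1 CPM (2.43-fold), which still lay above the untreated libraries, and SNHG1 fell to 110.9, 124.4 and 122.3 CPM (2.25-fold). SNHG9 (2.08-fold) and SNHG31 (2.07-fold) were the others, and SNHG31 lost the call in 6 of its 14 alternatives. SNHG31 was tested only because of its doxorubicin counts. Without doxorubicin replicate 1, SNHG32 and SNHG1 were left as the 2 DE members, where 14.6% of all genes tested were DE. ZFAS1, at 243.6, 223.9 and 232.3 CPM with doxorubicin, measured 110.5, 132.1 and 122.8 CPM with the combination (1.92-fold lower), and GAS5 165, 187 and 168.6 CPM (1.59-fold lower). 

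On top of 5-FU, SNHG1 alone was DE of 23, falling to 122, 120.9 and 117.4 CPM (2.17-fold, log2 -1.12 ± 0.106, adjusted p = 5.2e-06), where 9.77% of all genes tested were DE, 4.51% downwards and 5.26% upwards. Regardless of fold, 10 fell (24.5% of all genes did), SNHG18 and SNHG19 rose (25.9%), and the 2 directions held 50.4% of all genes. ZFAS1 fell 1.78-fold to 115.5, 128.5 and 126.5 CPM, SNHG33 1.53-fold, SNHG16 1.48-fold and SNHG29 1.45-fold. GAS5 stayed at 200, 217.4 and 217.5 CPM (log2 0.02 ± 0.108, adjusted p = 0.89) and DANCR at 62.4, 67.1 and 66.4 CPM. SNHG3, at 49.8, 52.8 and 51.3 CPM, did not differ from 5-FU alone by the test (log2 0.28 ± 0.125, adjusted p = 0.081).

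Whether CKI acted differently in the presence of the drug was tested as an interaction. In A431 it was DE and positive for 7 of 24 members (29.2%, against 8.56% of all genes upwards and 19.5% for both directions), namely SNHG25 (2.25), SNHG19 (1.83), SNHG15 (1.54), SNHG7 (1.42), SNHG17 (1.35), SNHG20 (1.13) and DANCR (1.1), and for 0 it was DE and negative, by edgeR or DESeq2 (10.9% of all genes). Regardless of fold, 13 were positive (31.4% of all genes), and ZFAS1 (-0.71) and SNHG18 (-0.56) were negative (26%), with the same counts of 13 and 2 at an unadjusted p under 0.05, and 57.4% of all genes passed in either direction. CKI lowered all 7 in untreated cells. On top of doxorubicin it lowered 5 of them by less, and SNHG25 did not pass the test (log2 -0.44, adjusted p = 0.084). SNHG7 rose by log2 0.2, a call lost in 7 of 15 alternatives. Against the vehicle control the interaction of ZFAS1 was -0.14 (adjusted p = 0.21) and did not pass, and that of SNHG11 went from 0.85 to 0.35 (adjusted p = 0.064). SNHG32 fell with CKI in both settings, and its interaction of -0.19 did not pass (adjusted p = 0.084). In MDA-MB-231 the interaction of CKI and 5-FU was DE for SNHG3 alone of 23 (1.19 ± 0.177, adjusted p = 0.00046), where 6.84% of all genes were DE, 3.04% with a positive and 3.81% with a negative value. Regardless of fold, it was positive for 8, among them GAS5 (0.88), and negative for 0, where 17.1% and 14.3% of all genes passed, 31.4% in all. At an unadjusted p under 0.05 these were 12 and 0, and DESeq2 called 1, a positive one. SNHG1 fell with CKI with or without 5-FU, with an interaction of -0.13 ± 0.15 (adjusted p = 0.53). Without untreated replicate 1 there were 10 positive and 2 negative members, with no share of all genes given for this setting. The interaction of SNHG1 was then -0.27 (adjusted p = 0.0078). That of SNHG3 was then 1.03 and that of GAS5 0.71.

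The vehicle control of A431 differed from untreated cells in several members, all within 2-fold. By edgeR and by DESeq2 0 of 24 were DE, where 2.54% of all genes tested were, and 6 rose and 6 fell by adjusted p alone (23.2% and 19.3% of all genes, 42.5% in all), with the same counts at an unadjusted p under 0.05. ZFAS1 rose 1.49-fold to 291.8, 253.1 and 257.3 CPM, SNHG8 rose 1.29-fold and SNHG5 1.25-fold. SNHG9 fell 1.9-fold, SNHG19 1.69-fold, SNHG11 1.41-fold and DANCR 1.38-fold to 34.8, 38.2 and 38.2 CPM. Of these DANCR in the vehicle group overlapped with its doxorubicin values.

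Genes of the proteins that bind or assemble snoRNAs were set beside the hosts, where 39.9% of all genes fell with doxorubicin, 33.7% with CKI in A431 and 18.8% with CKI in MDA-MB-231, and 28.6% rose and 28.5% fell with 5-FU. Under doxorubicin FBL, the fibrillarin methyltransferase, fell 2.92-fold (edgeR adjusted p = 1.1e-16), SNU13 1.67-fold and NOP58 1.5-fold, whereas NOP56 rose 1.09-fold, so that 3 of 4 box C/D core genes fell. All 4 box H/ACA core genes fell, with NHP2 at 2.04-fold and DKC1, the dyskerin pseudouridine synthase, at 1.71-fold. Of 10 snoRNP assembly factors tested 8 fell and 0 rose, led by ZNHIT6 at 3.48-fold, while the chaperone ATPases RUVBL1 and RUVBL2 fell 1.9-fold and 1.88-fold. At an unadjusted p under 0.05 9 of the 10 were lower and 0 higher. With 5-FU, 1 of 4 box C/D core genes fell, 1 of 4 box H/ACA core genes rose, and 5 assembly factors rose and 2 fell. With CKI in A431 all 4 box C/D core genes were DE downwards, with NOP56 at 4.87-fold and FBL at 3.87-fold, and all 4 box H/ACA genes and all 10 assembly factors fell. With CKI in MDA-MB-231, 2 of 4 box C/D core genes fell, NOP56 by 1.71-fold and FBL by 1.34-fold.

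Ribosomal protein genes, which share the pyrimidine-rich start with some of the hosts, were set beside them. With doxorubicin 41 of the 86 tested were DE downwards and 0 upwards (median log2 -0.98), and 77 fell and 1 rose by adjusted p alone, where 14.3% and 23% of all genes were DE and 39.9% and 40.7% passed by p alone. RPS16, RPLP0, RPL3 and RPL13 fell by 3.7-fold to 4.54-fold. The members' median in the same contrast was 0.3. With CKI in A431, 31 ribosomal protein genes were DE downwards and 1 upwards, beside 10.4% and 12% of all genes (median -0.86, members -0.95). With 5-FU, 1 of 85 was DE (13.3% of all genes), and 31 fell and 7 rose (28.5% and 28.6% of all genes; median -0.23, members 0.22). Protein-coding snoRNA hosts had 60 DE upwards and 74 downwards of 372 with doxorubicin (median -0.29) and 16 and 11 of 342 with 5-FU (median -0.06). RACK1, a ribosome-bound scaffold protein and snoRNA host, fell 4.26-fold with doxorubicin, and CPA4, a carboxypeptidase gene, rose 11.5-fold. Whether members and these lists differ was not tested.

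**Figure D4:**
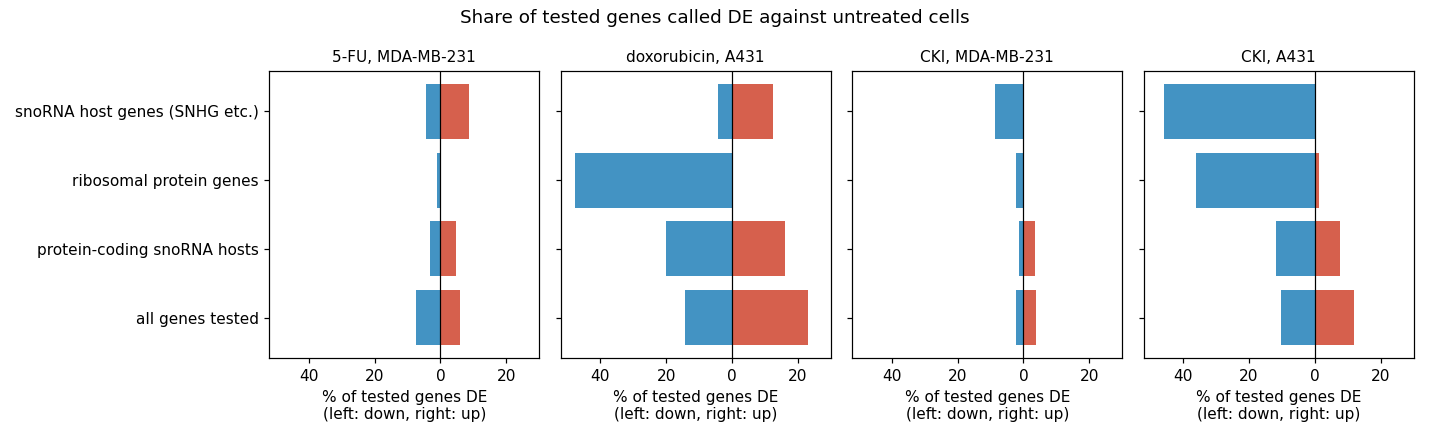
Percent of tested genes called DE downwards (left of 0, blue) and upwards (right of 0, red) in 4 contrasts with untreated cells, for the snoRNA host genes, ribosomal protein genes, protein-coding snoRNA hosts and all genes tested. With doxorubicin 47.7% of ribosomal protein genes and 4.17% of the snoRNA host genes are DE downwards, and with CKI in A431 these are 36% and 45.8%.

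Of the 10 nonsense-mediated decay factors, 9 rose and 0 fell with 5-FU (median log2 0.4), where 28.6% of all genes rose and 28.5% fell, with UPF3B, which bridges exon junction complexes to the decay machinery, DE at 2.09-fold and the phosphatase adaptor SMG5 at 1.36-fold. At an unadjusted p under 0.05 the counts were also 9 and 0. With doxorubicin 3 rose and 3 fell, where 40.7% and 39.9% of all genes did, with SMG8, a regulator of the SMG1 kinase, at 1.93-fold higher and SMG6, the endonuclease of the pathway, at 2-fold lower. With CKI in A431 4 rose and 3 fell (33.3% and 33.7% of all genes), and in MDA-MB-231 1 rose and 4 fell (17.4% and 18.8%).

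For 19 snoRNAs inside the hosts the table held rows of their own, which had few counts. Reads of a mature snoRNA, of its precursor and of the unspliced host cannot be told apart there. With 5-FU all 5 that could be tested were DE, where 13.3% of all genes tested were. SNORA71C of SNHG17 went from 7, 19 and 26 counts to 115, 91 and 74 counts (5.15-fold), and SNORA71A from 8, 4 and 6 to 23, 22 and 19 counts (3.36-fold), while their host rose 2.34-fold. SNORA71A had under 10 counts in each untreated library, so libraries of other groups carried it through the low-count filter. Its call adds no support for a response. SNORA73B fell 2.32-fold beside its host SNHG3 at 2.08-fold, SNORD99 of SNHG12 rose 2.15-fold beside 1.59-fold, and SNORD104 of SNHG25 fell 2.03-fold beside 1.37-fold. All 5 snoRNAs moved in the direction of the host, with which they share reads or precursors and libraries. SNORA71A, tested only through its higher groups, adds nothing to that count.

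With doxorubicin 4 of 8 tested snoRNA rows were DE, where 37.3% of all genes tested were. SNORD12B of ZFAS1 went from 5, 8 and 0 counts to 25, 23 and 23 counts (4.45-fold), SNORD12C rose 3.57-fold and SNORD12 rose 3.36-fold, while ZFAS1 itself rose 1.3-fold. SNORD12B had under 10 counts in each untreated library, so libraries of other groups carried it through the low-count filter. Its call adds no support for a response. In the vehicle group SNORD12B had 21, 6 and 10 counts, all below the doxorubicin libraries, and 2 of these counts exceeded every untreated one. SNORA71C of SNHG17 fell 3.51-fold to 11, 3 and 8 counts beside a 1.52-fold decrease of its host. SNORD104 rose 1.72-fold to 421, 423 and 349 counts from 189, 251 and 139, whereas its host SNHG25 had a log2 value of -0.25 ± 0.21 that did not pass (adjusted p = 0.28). SNORA73B rose 1.57-fold beside SNHG3 at 2.11-fold.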

How the data were processed

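Total RNA of 27 libraries in 9 groups was sequenced with an unstranded paired-end protocol. The submitters' processing notes name the read trimmer Trim Galore 0.3.7, the aligner STAR 2.5.3a, edgeR and the build hg19, and the authors deposited raw counts per Entrez gene in 1 table. The counting tool and annotation are not given in the sources used here. Of 24566 rows, 24422 matched a symbol in a RefSeq gene table. Counts were tested with edgeR 4.0.16 in R 4.3.3 (TMM, filterByExpr, glmQLFit and glmQLFTest) with all groups of a line in 1 fit. The contrast of the 2 drugs had its own fit, of the doxorubicin, 5-FU and both untreated groups. That of the untreated lines had a fit of their libraries alone. p-values were adjusted over all genes tested (Benjamini-Hochberg), and DE meant an adjusted p under 0.05 and an absolute log2 fold change above 1. The SE is the log2 fold change divided by the square root of F. The script was tested on simulated data. All 26 members are named, with library values for those DE under 5-FU or doxorubicin and for GAS5, SNHG1, ZFAS1, DANCR and MEG3. Named genes of each list are the up to 4 with the smallest adjusted p under either drug. Members and lists were chosen with earlier results of these data known. Y-linked genes were left out of the ribosomal list. Alternatives were DESeq2 1.42.0, RLE factors, no TMM, other filters, offsets for GC content and length, compared groups alone, a replicate block, 1 row per Ensembl identifier, the vehicle control, and leaving out each replicate. Counting error limits genes under about 10 counts, and 3 counts were taken as the floor. The doxorubicin dose is left out, since the labels do not tie it to a group.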

Additional observations from a re-analysis of the deposited data

Results flagged for a closer look

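For 8 host genes the effect of CKI differed with the presence of a cytotoxic drug by the interaction term of edgeR's quasi-likelihood test, at an adjusted p under 0.05 and an interaction above 1 or below -1 on the log2 scale. Without the limit on size there were 15 such genes of 24 with doxorubicin and 8 of 23 with 5-FU, where 57.4% and 31.4% of all genes passed. These counts lie near those shares. With the limit on size, 19.5% and 6.84% of all genes passed. With 5-FU in MDA-MB-231 the host gene past the limit was SNHG3, with an interaction of 1.19 on the log2 scale. CKI alone lowered SNHG3 1.88-fold in untreated cells, and in 5-FU-treated cells its log2 difference was 0.28 and did not pass the test. With doxorubicin in A431 these were SNHG25 (2.25), SNHG19 (1.83), SNHG15 (1.54), SNHG7 (1.42), SNHG17 (1.35), SNHG20 (1.13) and DANCR (1.1), which CKI lowered by 2.34-fold to 6.46-fold in untreated cells. On top of doxorubicin their log2 differences ran from -0.6 to 0.2. DANCR lost the call with library size alone and against the vehicle control, and SNHG20 in 4 of 22 alternatives, among them without untreated A431 replicate 1.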

How the results depend on the processing

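The 162 combinations of a member and a comparison with an adjusted p under 0.05 were recomputed under the alternatives. Of 2840 values 2626 kept direction and call, 205 lost the call and 9 reversed. The call was DE for members DE in the main fit and an adjusted p under 0.05 for the others, so moving past the fold criterion counted as kept. The alternative of adjusted p alone reads the main fit again and kept each call by construction. By library size alone SNHG5 and SNHG19 turned to 0.08 and 0.12 with doxorubicin. Offsets for GC content and length turned SNHG29 with doxorubicin (-0.11), SNHG19 with CKI on top of doxorubicin (0.01) and SNHG7 in the vehicle group (0.35). The vehicle control turned SNHG29 (-0.01), ZFAS1 (-0.2) and SNHG19 (0.53) with doxorubicin, and DANCR in the contrast of the 2 drugs (0.1). The cause was not tested. With adjusted p alone the fold criterion is dropped, and members called are given with the percent of all genes tested in brackets. They numbered 17 for 5-FU (57.1%), 16 for CKI in MDA-MB-231 (36.2%), 12 for CKI on top of 5-FU (50.4%) and 8 for the interaction with 5-FU (31.4%). They numbered 19 for doxorubicin (80.6%), 19 for CKI in A431 (67%) and 17 for CKI on top of doxorubicin (63.6%). The rest were 12 for vehicle (42.5%), 15 for the interaction with doxorubicin (57.4%) and 14 between untreated lines (72.9%). By the full criteria GC and length offsets gave 2 for CKI on top of 5-FU (9.86%) and 2 for its interaction (7.05%). The compared groups alone gave 2 for CKI on top of 5-FU (9.65%), and library size alone gave 8 for doxorubicin (38%). At least 10 counts in every library gave 2 for CKI on top of doxorubicin (11.5%), where fewer genes were tested. Leaving out each replicate gave 1 to 3 for CKI in MDA-MB-231, 1 to 2 for the interaction with 5-FU, 2 to 4 for CKI on top of doxorubicin and 0 to 1 for vehicle. No shares of all genes are given for these ranges. Replicate numbers were not found to pair the samples, since in 0 of 7 comparisons all 3 pairs correlated above 0.1 (r from -0.33 to 0.17), and the replicate block gave 3 for 5-FU and 4 for doxorubicin, as without it. Between untreated lines, a block within each line would use as many terms as libraries, and a replicate block shared by the lines, chosen after seeing the data, gave 6, as without it, while SNHG15 no longer passed (adjusted p = 0.056). Counts under the floor of 3 limit MEG3, SNHG22 and SNHG31.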
